A study of Mus musculus with 11 samples.

Results

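Malat1, Neat1, Meg3, Rian, Kcnq1ot1 and Miat are long noncoding RNAs that stay largely in the nucleus. They were taken by gene symbol from the count table of RPE/choroid, and 5 of the 6 listed genes are in it, among 14602 genes in all. The set was selected on measured values of these same libraries, namely the high and widely spread Malat1 counts, so the levels and the spread of Malat1 are a description and no test is attached to them. Miat is not listed in the count table and was looked at in the transcript files alone.

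Malat1 sits beside nuclear speckles, where splicing factors of the SR family gather, and is among the most abundant RNAs of many mammalian cells. Neat1 lies next to Malat1 in the genome and is the scaffold of paraspeckles, nuclear bodies that need the long form of Neat1 to assemble. Meg3 and Rian are transcribed from the maternal copy of the Dlk1-Dio3 imprinted domain, and Kcnq1ot1 is transcribed from the paternal copy within Kcnq1, where it silences neighbouring genes. Miat, also called Gomafu, is a spliced nuclear RNA known from neurons of the brain and retina.

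The libraries were made from C57BL/6J mice, 6 naïve control and 5 laser treated. Treated mice received spots of the 2RT nanosecond laser around the optic nerve head of one eye at 9 months of age and were collected at 12 months, 3 months later, while the naïve mice were age matched and had no laser. Each sample was bulk RNA of the RPE (retinal pigment epithelium) and choroid after the neural retina was taken off, so treated and untreated RPE of a laser treated eye are mixed in 1 library. The RNA was preamplified with a SmartSeq kit, whose first primer pairs with runs of A. The labels number the samples of a group but do not say that each number is another mouse, and p-values below measure the spread between these samples.

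Total counts ranged from 25700881 to 36766020 in naïve control and from 32094560 to 38755994 in laser treated libraries. Of 12 RPE markers, Rpe65, Rgr, Ttr, Rlbp1 and Lrat were abundant in every library, whereas Best1, a chloride channel of the RPE, had 0 to 3.08 CPM. The 12 neural retina markers summed to 6242 to 22811 CPM in naïve control and 4151 to 19817 CPM in laser treated libraries. The groups differed in their dependence on base composition. The slope of a library's log2 CPM on GC content, relative to the mean of all libraries, was -0.358 to -0.00895 per 10 percentage points in naïve control and 0.0114 to 0.272 in laser treated libraries, without overlap (p = 0.0043 in a two-sided exact permutation test, which can give nothing lower here). Naïve control 4 and 5 and laser treated 1, 4 and 5 had high Y-linked transcripts, 145 to 246 CPM summed over 4 genes, whereas laser treated 2 had both Xist, at 44.1 CPM, and Y-linked transcripts, at 8.29 CPM. The labels give no sex. The transcript files carry a label R1 (naïve control 1 to 3, laser treated 1 and 2) or R2 (the other libraries), whose meaning is not given. Naïve control 6 and laser treated 5 had been set apart in earlier results of these data, by a measure not given here. Values without both are given where they matter. Leaving out either of the 2 alone, edgeR called 0 genes at an adjusted p under 0.05.

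The 3′ ends are shown first because the kit copies RNA from runs of A, while 2 of these RNAs, Malat1 and long Neat1, are known to end without a poly(A) tail. RNase P cuts both below an A-rich tract, and U-rich stretches upstream fold with that tract into a triple helix that protects the end. In the Malat1 transcript below (GRCm38, chr19:5795924-5796101, minus strand, GENCODE M21), capitals mark mascRNA, the small tRNA-like RNA released by the cut as RefSeq places it. Of the 25 bases before the cut, 17 are A, with a run of 12.
Malat1 cleavage region: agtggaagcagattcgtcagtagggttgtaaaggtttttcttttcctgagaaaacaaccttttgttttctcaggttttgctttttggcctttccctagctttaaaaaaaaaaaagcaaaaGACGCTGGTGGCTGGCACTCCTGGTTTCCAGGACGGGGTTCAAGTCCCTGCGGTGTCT
The annotated end of long Neat1 (chr19:5824708-5824807, minus strand) has the same 11 letters, AAAAAGCAAAA, as those just before the Malat1 cut. They are in capitals here, and 0.0459% of 139316 annotated transcripts hold them, on the sense strand, in their last 100 bases.
Long Neat1 end: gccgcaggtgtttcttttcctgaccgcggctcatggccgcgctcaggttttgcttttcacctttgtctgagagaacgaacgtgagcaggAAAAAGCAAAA

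The other annotated ends hold the poly(A) signal AATAAA, in capitals below, in the last 100 bases of the transcript, as do 28.9% of annotated transcripts on the sense strand. These are the ends from which oligo-dT copying of a tailed RNA starts. The windows are chr19:5795690-5795789 on the minus strand for Malat1, chr19:5842307-5842406 on the minus strand for short Neat1, chr12:109571622-109571721 on the plus strand for Meg3, chr12:109661617-109661716 on the plus strand for Rian and chr7:143203458-143203557 on the minus strand for Kcnq1ot1. Long Neat1 is the exception, with no AATAAA in its window.
Malat1 end: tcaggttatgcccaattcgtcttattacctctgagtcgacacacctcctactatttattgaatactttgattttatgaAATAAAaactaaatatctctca
Short Neat1 end: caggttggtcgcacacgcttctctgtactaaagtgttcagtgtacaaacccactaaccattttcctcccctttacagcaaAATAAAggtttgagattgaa
Meg3 end: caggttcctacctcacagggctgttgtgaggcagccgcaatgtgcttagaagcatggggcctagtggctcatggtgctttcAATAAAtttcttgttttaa
Rian end: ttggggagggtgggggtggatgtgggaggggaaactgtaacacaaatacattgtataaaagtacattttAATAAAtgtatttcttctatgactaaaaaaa
Kcnq1ot1 end: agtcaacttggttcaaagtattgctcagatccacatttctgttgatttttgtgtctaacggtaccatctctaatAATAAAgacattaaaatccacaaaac
Runs of 10 or more A inside the transcript, which the same primer could pair with, number 1 in Malat1 (the tract above), 10 in Kcnq1ot1 (the longest of 41 bases) and 0 in either Neat1 transcript and in the Meg3 and Rian transcripts shown.

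Malat1 (ENSMUSG00000092341, chr19:5795690-5802672, minus strand, 1 exon of 6983 bases, 42.5% GC) was the member with by far the most reads, with a rank from 5 to 24 among all genes in the 11 libraries. Its level was 5097 CPM in naïve control 1, 19204 in control 2, 12935 in control 3, 10004 in control 4, 13290 in control 5 and 6006 in control 6. In laser treated libraries 1 to 5 it was 11889, 4097, 8619, 2655 and 9052 CPM. The highest values are those of naïve control 2, 5 and 3 and the lowest those of laser treated 4 and 2, yet naïve control 1 and 6 lie below laser treated 1, 3 and 5, so the groups overlap. The highest library was 7.23-fold above the lowest. The coefficient of variation of 51.8% over 11 libraries may be set beside a median of 19.6% over the 100 genes with the most counts. Of those 100 genes, 9 varied more, among them the photoreceptor genes Gnat1, Prph2, Pdc, Gngt1, Sag and Pde6g and the crystallins Cryaa and Crybb2.

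Naïve control libraries averaged 11090 ± 5235 CPM of Malat1 (SD, n = 6), while the laser treated ones averaged 7262 ± 3798 CPM (SD, n = 5). The log2 fold change after laser was -0.61 with a standard error of 0.41 (adjusted p = 0.519, edgeR quasi-likelihood test over all genes), and the 95% interval of the fold, 0.353 to 1.22, includes no change. Removing the trend on GC content brought it to -0.33 (SE 0.39). The Malat1 level and the GC slope of a library had r = -0.594 and rho = -0.618 over 11 libraries, r = -0.47 without the 2 libraries farthest from the median slope and r = -0.322 within the 6 naïve control libraries. These are descriptions of points that share group, library and depth, and their part in the difference was not tested. The log2 fold change was -0.62 among R1 libraries alone and -0.51 among R2 libraries alone.

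**Figure D1:**
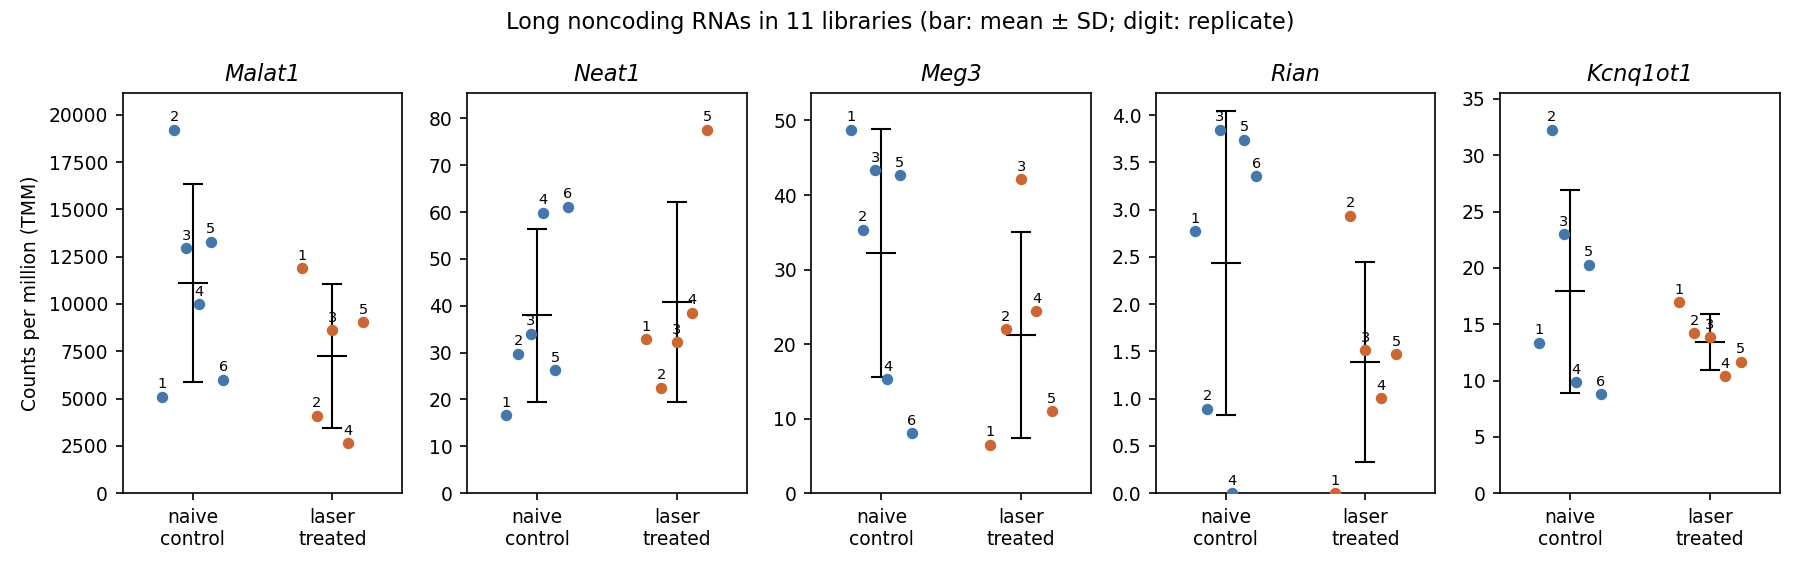
CPM (TMM-normalized, linear axis from 0) of 5 long noncoding RNAs in 6 naïve control (blue) and 5 laser treated (orange) libraries, with replicate numbers, and the mean ± SD as black bars. The groups overlap for each gene, and Malat1 reaches from 2655 CPM in laser treated 4 to 19204 CPM in naïve control 2.

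Neat1 (ENSMUSG00000092274, chr19:5824708-5845478, minus strand, 47.3% GC) was measured at 16.6, 29.7, 34.0, 59.8, 26.2 and 61.2 CPM in naïve control 1 to 6. The laser treated libraries 1 to 5 had 32.8, 22.5, 32.3, 38.5 and 77.5 CPM. Laser treated 5 was the highest, followed by naïve control 6 and 4, and naïve control 1 was the lowest, with the groups overlapping almost entirely. Neat1 averaged 37.9 ± 18.4 CPM (SD, n = 6) without laser, compared with 40.7 ± 21.4 CPM after it (SD, n = 5). The log2 fold change was 0.10 with a standard error of 0.36 (adjusted p = 0.931, edgeR), for a 95% interval of the fold of 0.625 to 1.84. Its sign rested on single libraries, since it was -0.05 without naïve control 1 and -0.27 without laser treated 5.

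The transcript files separate the short and the long Neat1. The short transcript (chr19:5842302-5845478, 3177 bases) was assembled in 11 of 11 libraries at 60.4 to 217 reads per base. The 17594 bases found only in the long transcript (chr19:5824708-5842301) held 1 to 5 unnamed pieces per library, covering 1646 to 5183 bases. These pieces were listed without a strand, so they are placed on long Neat1 by position alone. Averaged over the whole long-only region, coverage was 0.213% to 1.85% of that of the short transcript, with laser treated 5 the lowest and laser treated 3 the highest. This share averaged 0.928% ± 0.283 without laser (SD, n = 6) but 1.12% ± 0.608 after it (SD, n = 5), and the difference of 0.193 percentage points was within the spread between libraries (exact two-sided permutation test, p = 0.515). By 2000-base window past the short end, 11 libraries had a piece in each window from 8000 to 12000 bases, 9 from 6000 to 8000, 3 from 12000 to 14000, 2 from 14000 to 16000, 1 in each window of the first 6000 and 0 from 16000 on. Bases that were not assembled count as 0 here. How well an oligo-dT primed library shows an RNA without a tail was not tested. Coverage times length, divided by the count, came to 290 bases per count (median over 11 libraries) for short Neat1, against a median of 144 over 431 genes with 1 listed reference transcript and 141 for Malat1, so the count table and the transcript files do not give Neat1 in the same proportion as other genes.

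**Figure D2:**
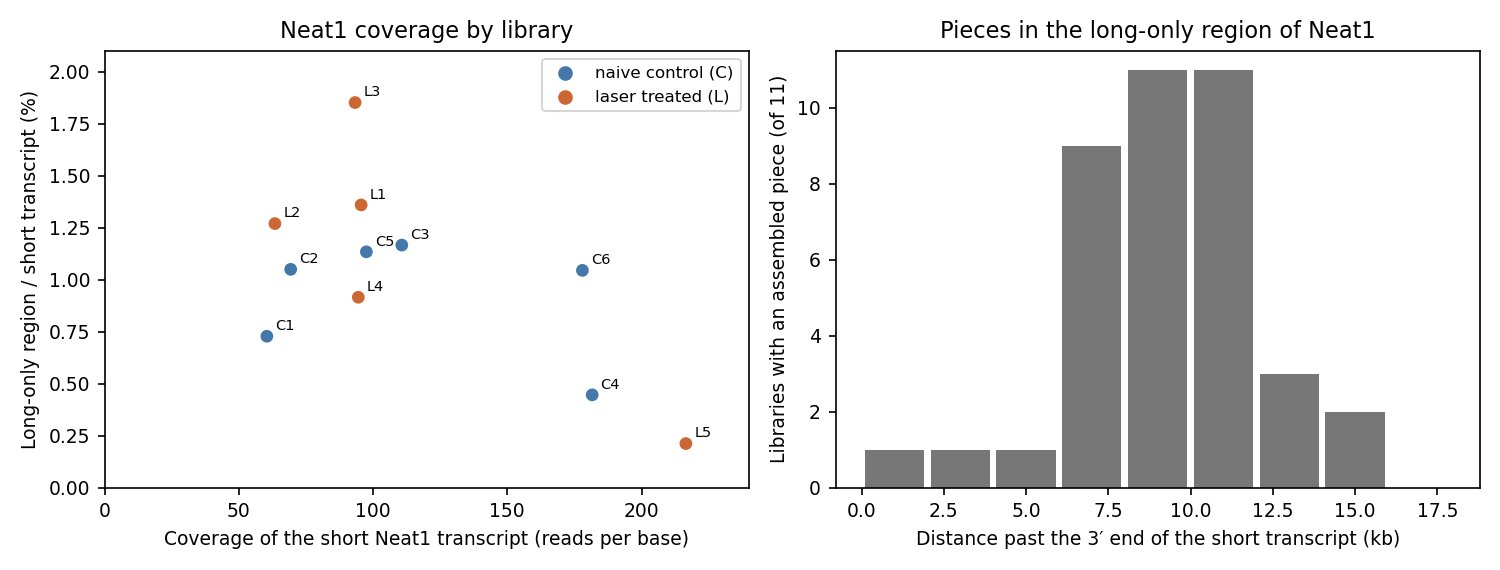
Left, coverage of the short Neat1 transcript in reads per base against coverage of the long-only region as a percentage of it, 1 point per library (blue, naïve control; orange, laser treated). Right, number of the 11 libraries with an assembled piece in each 2000-base window past the 3′ end of the short transcript, which reaches 11 between 8000 and 12000 bases.

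Meg3 (ENSMUSG00000021268, chr12:109541001-109571726, plus strand, 49.2% GC), a maternally expressed RNA often found in neurons, had 48.7, 35.3, 43.3, 15.3, 42.7 and 8.07 CPM in naïve control 1 to 6. In laser treated 1 to 5 it had 6.51, 21.96, 42.1, 24.4 and 11.0 CPM. Naïve control 1, 3 and 5 and laser treated 3 were high and laser treated 1 and 5 and naïve control 6 low, so both groups span most of the range. Meg3 averaged 32.2 ± 16.7 CPM without laser (SD, n = 6), compared with 21.2 ± 13.9 CPM after it (SD, n = 5), with a log2 fold change of -0.60 (SE 0.50, adjusted p = 0.619, edgeR; 95% interval of the fold 0.311 to 1.39). Among R1 libraries alone it was -1.55, and among R2 libraries alone it was 0.25.

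The Meg3 level followed the summed markers of nerve cells from library to library. Over 11 libraries its log2 CPM had r = 0.89 and rho = 0.927 with the summed level of 10 neuron markers, and r was 0.936 within the 6 naïve control libraries. With the 12 neural retina markers r was 0.802, and with the 12 RPE markers it was -0.465. These sums are of CPM, so the most abundant gene weighs most in each. In the neuron sum this was Snap25, at a mean of 676 CPM in naïve control and 335 CPM in laser treated libraries. Syt1 averaged 96.6 and 71.0 CPM, and each other neuron marker 39.1 CPM or less. Correlations of Meg3 with single markers are not given here. The neuron markers summed to 289 to 1455 CPM in naïve control and 243 to 769 CPM in laser treated libraries, and all 10 were lower in the laser group by fitted value, 1 of them (Stmn2) at an unadjusted p under 0.05. The part of nerve or retina cells in the Meg3 difference was looked at only with 1 added term. In bulk tissue, fewer cells of a type and less RNA per cell cannot be told apart. With the neural retina marker level as a term, chosen after seeing the data, the log2 fold change of Meg3 was -0.34 (SE 0.36).

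**Figure D3:**
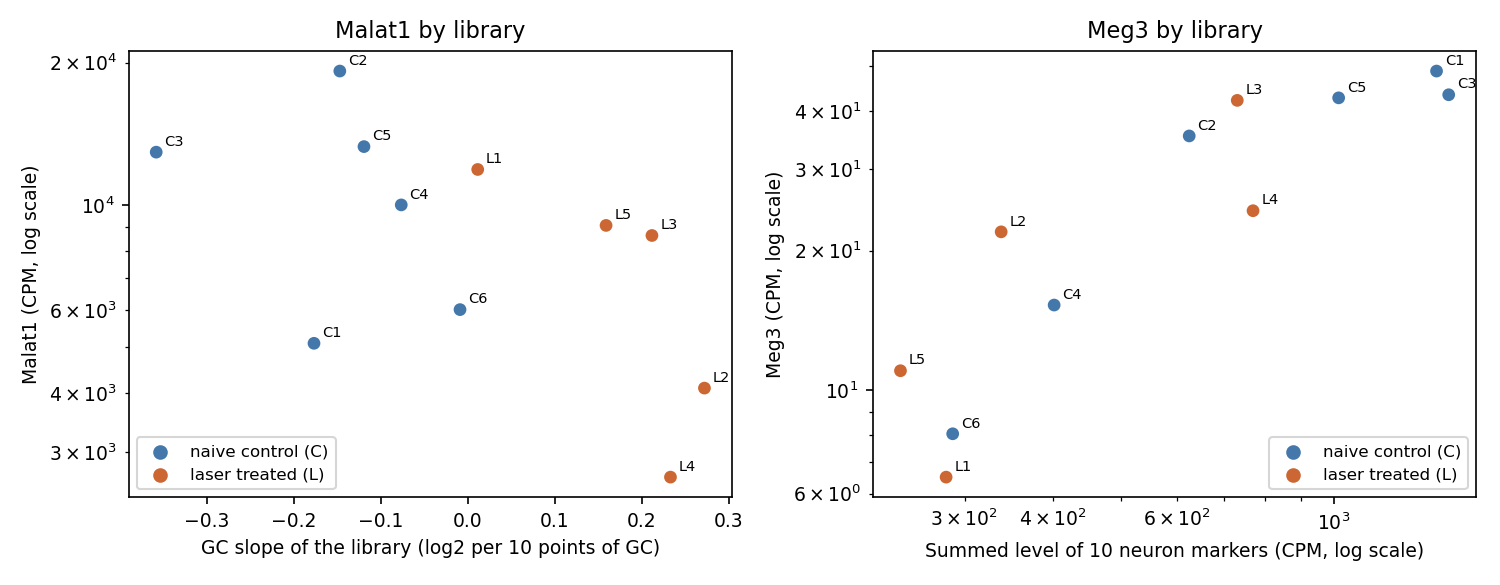
Left, Malat1 CPM (log axis) against the slope of a library's log2 CPM on GC content. Right, Meg3 CPM against the summed CPM of 10 neuron markers (log axes), with naïve control libraries in blue and laser treated in orange; Meg3 is highest in naïve control 1, where the markers sum to 1399 CPM, and lowest in laser treated 1, where they sum to 283 CPM.

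In the transcript files no piece was named after Meg3, but unnamed pieces lay on it in 10 of 11 libraries, and in the same 10 libraries a piece lay within 1000 bases of the 3′ end, at 4.22 to 19.2 reads per base. A further stretch, the 80-base hairpin of Mir1906-1 (chr12:109544541-109544620), lies inside a Meg3 exon and was listed in every library, at 8.23 to 54.9 reads per base in naïve control and 9.79 to 53.6 in laser treated libraries. Its coverage followed the Meg3 counts (r = 0.906, rho = 0.873, n = 11 libraries), and reads over a hairpin inside an exon do not show that the mature miRNA was made. The 94-base hairpin of Mir770, also within the Meg3 locus, was listed at 0 in 9 libraries, all naïve control ones among them, and at 12.99 and 3.72 reads per base in laser treated 3 and 5. The mature sequence of miR-1906 is given with its seed, bases 2 to 8, in capitals (RefSeq, GRCm38.p6).
mmu-miR-1906: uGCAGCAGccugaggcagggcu

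Rian (ENSMUSG00000097451, chr12:109603940-109661716, plus strand, 35.8% GC), a host of small nucleolar RNAs and miRNAs downstream of Meg3, was close to the limit of detection. Naïve control 1 to 6 had 98, 22, 119, 0, 138 and 111 counts, or 0 to 3.84 CPM, and laser treated 1 to 5 had 0, 108, 53, 35 and 49 counts, or 0 to 2.94 CPM. Each group thus has 1 library at 0, and a count of 0 allows up to 0.0902 CPM in naïve control 4 and 0.0971 CPM in laser treated 1 (3 counts per library, for counting error only). The mean was 2.43 ± 1.61 CPM (SD, n = 6) against 1.38 ± 1.06 CPM (SD, n = 5), and the log2 fold change of -0.81 had a standard error of 1.15 (adjusted p = 0.809, edgeR). The interval of the fold ran from 0.103 to 3.15, so a difference of this size was not detectable. Pieces within 1000 bases of the Rian 3′ end were assembled in 9 of 11 libraries. Rian and Meg3 varied together only loosely, with r = 0.523 and rho = 0.497 over 11 libraries.

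Kcnq1ot1 (ENSMUSG00000101609, chr7:143203458-143296549, minus strand, 1 exon, 40.3% GC) is antisense to Kcnq1, whose reads cannot be told apart from it where the genes overlap if strand was not used in counting. Its level was 13.4, 32.3, 23.0, 9.83, 20.3 and 8.79 CPM in naïve control 1 to 6 and 16.9, 14.2, 13.8, 10.4 and 11.7 CPM in laser treated 1 to 5. Naïve control 2 and 3 were the highest and naïve control 6 and 4 the lowest, and the laser treated libraries all lay between these. The spread was 50.3% of the mean in naïve control and 18.8% in laser treated libraries, a difference in spread that was not tested. An average of 17.9 ± 9.01 CPM without laser (SD, n = 6) compared with 13.4 ± 2.52 CPM after it (SD, n = 5) gave a log2 fold change of -0.42 (SE 0.32, adjusted p = 0.586, edgeR; 95% interval of the fold 0.462 to 1.21). Once the GC trend was removed it was -0.04 (SE 0.32). The transcript of 83437 bases in the transcript files had 0.07 to 1.32 reads per base on average over its length.

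Miat (chr5:112213228-112228948, minus strand, RefSeq) was overlapped by 1 unnamed piece in each of 2 of 11 libraries, and by no piece in the other 9. The piece in naïve control 2 (chr5:112228870-112229926, 2.61 reads per base) only touched the 5′ end of Miat, and most of it lay outside the gene. The piece in laser treated 4 (chr5:112220926-112221869, 4.70 reads per base) lay inside the gene. No level or comparison is given for it. Sf1, Qk, Celf3 and Srsf1 are RNA-binding splicing factors known to bind Miat or its repeats. Of these 4, 0 differed at an unadjusted p under 0.05, against 15.9% of all genes, and so small a list says little. Their log2 fold changes were -0.15 to -0.01.

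Across all genes, edgeR called 0 of 14602 at an adjusted p under 0.05 (0%), with 2325 (15.9%) at an unadjusted p under 0.05, whereas DESeq2 called 502 of the 7512 genes to which it gave an adjusted p (6.68%) and limma voom called 1. Of the 5 members 0 passed by any of these, with DESeq2 adjusted p of 0.367 for Malat1, 0.882 for Neat1, 0.415 for Meg3 and 0.446 for Kcnq1ot1, and none given for Rian. None passed at an unadjusted p under 0.05 either. The CPM of the groups overlapped for 5 of 5 members, while 330 genes (2.26%) had groups that did not overlap. The median log2 fold change of the 5 was -0.60, with 4 lower and 1 higher by fitted value, against -0.02 over all genes. With the GC trend removed their median was -0.24, against 0.04 over all genes, and without naïve control 6 and laser treated 5 it was -0.64.

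**Figure D4:**
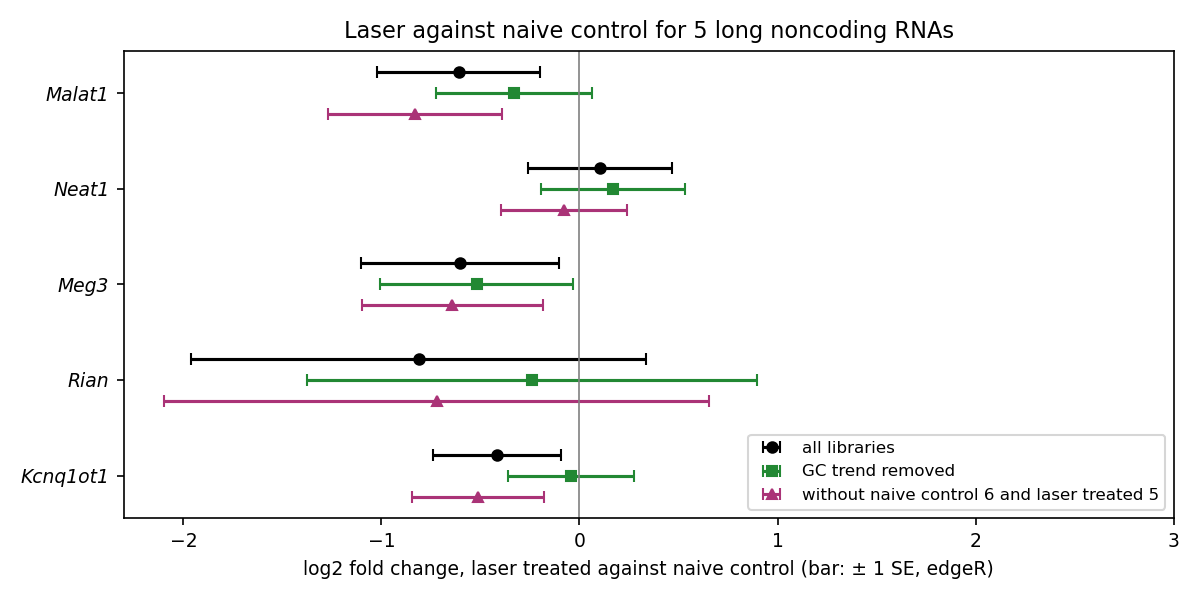
Fitted log2 fold change after laser ± 1 SE (edgeR) for 5 long noncoding RNAs, with all 11 libraries (black), after removal of the GC trend (green) and without naïve control 6 and laser treated 5 (purple). Malat1 moves from -0.61 to -0.33 and Kcnq1ot1 from -0.42 to -0.04 when the GC trend is removed.

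The order of the members per length of transcript depends on the length used, apart from Malat1. Malat1 had a median of 3880 TPM computed from the counts and the union of its exons. Over the union of exons Neat1 and Meg3 followed at medians of 4.88 and 4.79 TPM, and Kcnq1ot1 and Rian at 0.446 and 0.261 TPM. Malat1 was first in 11 of 11 libraries. On this length Neat1 and Meg3 changed places between libraries, Meg3 being above Neat1 in 6 and below it in 5, and Rian was above Kcnq1ot1 in 3. The short Neat1 transcript, of 3177 bases, held nearly all of the coverage. Over its length the same Neat1 counts gave 16.1 to 70.1 TPM, with a median of 31.9. Meg3, still over its union of 18089 bases, had 1.01 to 8.29 TPM, lower in 11 of 11 libraries. These lengths are unlike, since the Meg3 transcript shown above has only 1896 bases. No TPM of Meg3 over that length is given, so the order of Neat1 and Meg3 is not settled. Over the longest transcript of each gene the medians were 0.455 TPM for Rian and 0.345 TPM for Kcnq1ot1, the reverse of their order over the union. The authors' TPM for the assembled transcripts had medians of 1440 for Malat1, 23.6 for short Neat1 and 0.158 for Kcnq1ot1, and over 11 libraries they followed the CPM of the count table with r = 0.992, 0.988 and 0.641.

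**Figure D5:**
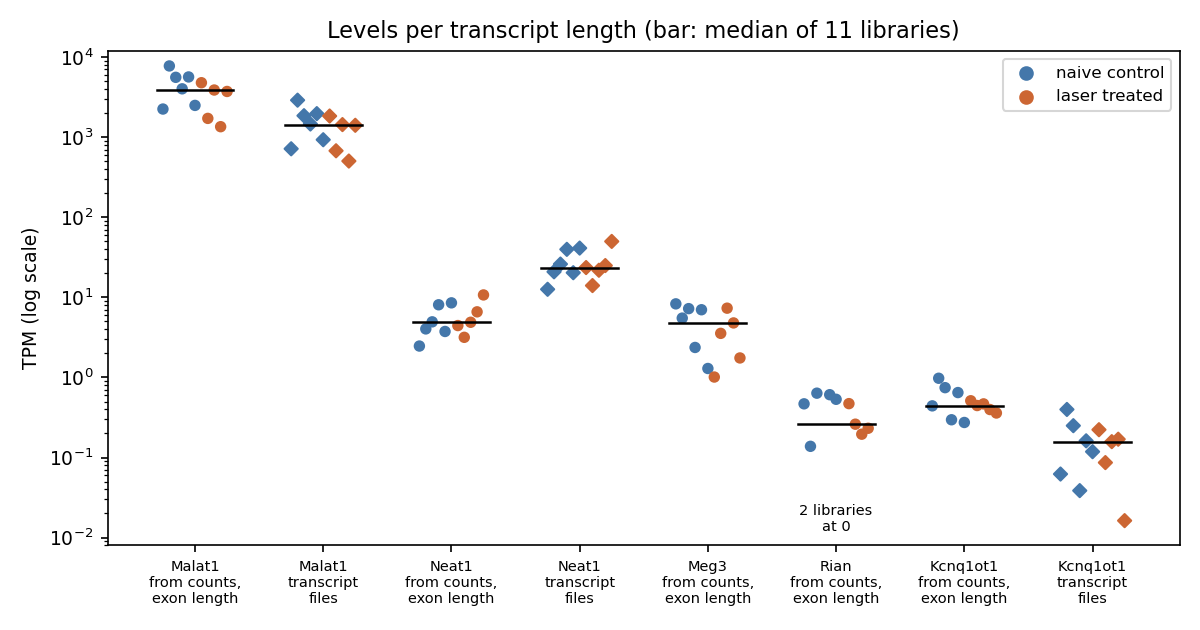
TPM (log axis) of 5 long noncoding RNAs in 11 libraries, from the counts and the exon length (circles) and, where listed, from the deposited transcript files (diamonds), with naïve control in blue, laser treated in orange and the median as a bar. Malat1 lies above all other members in every library, and Rian is listed at 0 in 2 libraries.

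Among the members, Malat1 and Kcnq1ot1 had the most similar pattern over the libraries, with r = 0.691 and rho = 0.664, r = 0.8 without the 2 libraries farthest from the median of Malat1 and r = 0.806 within naïve control. Neat1 and Meg3 ran in opposite directions, with r = -0.644 and rho = -0.609, and r = -0.882 within naïve control. Malat1 and Neat1, which are neighbours on chromosome 19, had r = 0.0916, and Malat1 and Meg3 had r = 0.0687. The 10 pairs share libraries and their base composition, and these are descriptions.

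The genes most like Malat1 over the 11 libraries, of 8852 with a mean of at least 10 CPM, were Il18, a cytokine of the inflammasome pathway (r = 0.929), the zinc finger gene Zfp131 (0.921), Tmem93 (0.911), Nemf, a factor of ribosome quality control (0.909), and 2810008D09Rik (0.907). The most opposite were Zbtb20, a transcriptional repressor (r = -0.913), Med26, a Mediator subunit (-0.899), Pfkm, a phosphofructokinase of glycolysis (-0.887), Dctn1, a dynactin subunit (-0.885), and Copg, a coat protein of the Golgi (-0.881). The quartiles of r over all these genes were -0.331 and 0.369. The first 5 genes have a median GC content of 45.1%, the last 5 of 54.7% and all genes of 49.8%. Only 2 of the 10 names stayed among the extremes with Spearman's rank correlation, and 2 without naïve control 6 and laser treated 5.

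Of the 7 protein-coding neighbours of Malat1 and Neat1 on chromosome 19, 4 had a higher fitted level after laser and 3 a lower one. The same 4 differed at an unadjusted p under 0.05 (8.24% of all genes were higher at this threshold), and the median log2 fold change of the 7 was 0.46. Dpf2, a subunit of BAF chromatin remodelling complexes, had 51.8 ± 7.56 CPM in naïve control and 76.2 ± 11.7 CPM in laser treated libraries (log2 fold change 0.56, SE 0.14, adjusted p = 0.172 with edgeR and 0.0226 with DESeq2). It was the 1 of the 7 that DESeq2 called, against 6.68% of all genes to which DESeq2 gave an adjusted p. Frmd8, which stabilises the iRhom and ADAM17 sheddase complex, had 0.77 (adjusted p = 0.258), and Ltbp3, which binds latent TGF-beta, had 0.50 (adjusted p = 0.279). Slc25a45, Cdc42ep2 and Pola2 had log2 fold changes of -0.40, -0.48 and -0.22 at 5.68 CPM or less in every library. Dpf2, Frmd8 and Ltbp3 have 51.1% to 58.3% GC, Slc25a45 and Cdc42ep2 have 54.1% and 50.2%, and the median of all genes is 49.8%. With the GC trend removed the log2 fold change was 0.53 for Dpf2, 0.57 (SE 0.31) for Frmd8 and 0.29 (SE 0.20) for Ltbp3. Dpf2 was then the 1 of the 7 at an unadjusted p under 0.05, against 1071 of 14602 over all genes. The part of base composition was not tested further. Without naïve control 6 and laser treated 5, edgeR called 1 of the 7, Dpf2, at an adjusted p under 0.05, when it called 389 of 14563 genes.

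The protein-coding genes of the 2 imprinted domains had 0 of them at an adjusted p under 0.05 (0% of all genes, edgeR). In the Dlk1-Dio3 domain, Dlk1, a Notch ligand-like protein, averaged 4.57 ± 2.66 CPM without laser (SD, n = 6) compared with 5.20 ± 1.70 CPM after it (SD, n = 5), and its log2 fold change was 0.19 (SE 0.51), and Dio3, the deiodinase that inactivates thyroid hormone, had at most 1.53 CPM in any library. The Kcnq1ot1 list of 10 measured genes also holds Kcnq1ot1 itself, and Ehmt2 and Ezh2, which were listed as acting with it. By fitted value 8 of the 10 were higher, Ehmt2 and Ezh2 among them, against 7081 of 14602 over all genes. Kcnq1ot1 and Cdkn1c were lower. Of the 10, 1 differed at an unadjusted p under 0.05, against 15.9% of all genes. This was Tssc4, a splicing factor cofactor, with 37.8 ± 4.41 CPM in naïve control and 48.5 ± 3.97 CPM in laser treated libraries (log2 fold change 0.36, SE 0.13, adjusted p = 0.220, edgeR), and a log2 fold change of 0.12 with the GC trend removed. Cdkn1c, the imprinted inhibitor of the cell cycle, had -0.02, Slc22a18 0.35, Kcnq1 0.64 at 2.62 CPM or less, and Cd81, Nap1l4 and Osbpl5 0.19, 0.08 and 0.42. Ehmt2 and Ezh2, histone methyltransferases that act with Kcnq1ot1, had 0.42 (SE 0.22) and 0.05 (SE 0.29). Removing the GC trend left 0 of the 10 at an unadjusted p under 0.05, against 1071 of 14602 genes. The list median went from 0.271 to 0.172. Slc22a18, Osbpl5 and Ehmt2 then had 0.15, 0.21 and 0.19, and Cdkn1c had -0.28. Kcnq1 had 0.47, Cd81 0.19, Nap1l4 0.12 and Ezh2 0.28. The part of base composition in these values was not tested.

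Of 12 paraspeckle proteins, 2 (16.7%) differed at an unadjusted p under 0.05, 1 in each direction, a share near the 15.9% of all genes. Sfpq, which binds Neat1 and is needed for paraspeckles, had 88.6 ± 18.0 CPM in naïve control and 62.7 ± 3.94 CPM in laser treated libraries (log2 fold change -0.50, SE 0.14, adjusted p = 0.177 with edgeR and 0.0360 with DESeq2). DESeq2 called 1 of the 12, against 6.68% of all genes to which it gave an adjusted p. Smarca4, the ATPase of SWI/SNF complexes, had 0.28 (adjusted p = 0.248, edgeR). The abundant Hnrnpk and Ewsr1 had -0.19 and 0.14. The median of the list was -0.10, which became 0.08 with the GC trend removed, whereas Sfpq kept -0.46.

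Of 17 nuclear speckle and SR proteins, 5 differed at an unadjusted p under 0.05, and all 5 were lower in the laser group (7.68% of all genes did so). These were the splicing factors Srsf3 (log2 fold change -0.43, adjusted p = 0.216), Srsf10 (-0.49, 0.223) and Tra2a (-0.59, 0.299), Srrm1 (-0.39, 0.314) and the speckle scaffold Son (-0.48, 0.244), by edgeR. The abundant Srsf1 and Srsf5 had -0.15 and 0.05. With the GC trend removed 1 of the 17, Son, differed at an unadjusted p under 0.05, against 1071 of 14602 over all genes. The list median went from -0.18 to 0.02, and that of all genes from -0.02 to 0.04. Without naïve control 6 and laser treated 5, edgeR called Son, 1 of the 17, lower at an adjusted p under 0.05. Over all genes it called 249 of 14563 lower. In that fit 4 of the 17 were lower at an unadjusted p under 0.05, against 1425 over all genes, and the list median was -0.21.

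Of 9 genes for the 3′ end and the methylation of Malat1, 2 (22.2%) differed at an unadjusted p under 0.05, both lower, against 15.9% of all genes in either direction and 7.68% lower. Rpp30, a subunit of RNase P, had 30.2 ± 11.1 CPM in naïve control and 18.4 ± 2.95 CPM in laser treated libraries (log2 fold change -0.72, SE 0.25, adjusted p = 0.214, edgeR), and Ythdc1, the nuclear reader of N6-methyladenosine, had -0.44 (SE 0.15, adjusted p = 0.202). Mettl16, which binds the Malat1 triple helix, had -0.15 (SE 0.13). With the GC trend removed 0 of the 9 differed at an unadjusted p under 0.05, against 1071 of 14602 over all genes.

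Of 14 other long noncoding RNAs in the table, 1 (7.14%) differed at an unadjusted p under 0.05, against 15.9% of all genes. Tug1, an RNA described in the developing retina, had 194 ± 28.9 CPM in naïve control and 152 ± 10.9 CPM in laser treated libraries (log2 fold change -0.35, SE 0.12, adjusted p = 0.208, edgeR), and 0.02 with the GC trend removed. Without naïve control 6 and laser treated 5 the 1 gene at this threshold was Firre and not Tug1, against 2963 of 14563 over all genes. Firre (6720401G13Rik), an X-linked RNA of nuclear organisation, had 0.40 (SE 0.20), Oip5os1 (1700020I14Rik) -0.40 (SE 0.25) and Dleu2, a host of miRNAs, -0.94 (SE 0.50). Norad (2900097C17Rik), Peg13 and Six3os1 had 0.04, 0.14 and 0.09 with mean levels of 67.3 CPM or more. Xist, which coats the inactive X chromosome, ranged from 0 to 244 CPM in naïve control and 0 to 163 CPM in laser treated libraries, with a log2 fold change of -1.34 (SE 1.93), and its antisense partner Tsix had -0.55 (SE 0.72). The low Ftx (B230206F22Rik), Jpx (Enox), H19, Airn and Sox2ot had -0.19, 0.29, -0.73, 0.28 and 0.54. The median over the 14 was -0.07.

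Marker lists of other cells were read in the same way. Schwann cell markers were higher at an unadjusted p under 0.05 for 3 of 5, against 8.24% of all genes (edgeR). Among the 3 were Mbp (log2 fold change 2.22, adjusted p = 0.208) and Sox10 (0.62, 0.172) by edgeR. The summed level of the Schwann cell markers was 393 to 683 CPM in naïve control and 595 to 1298 CPM in laser treated libraries. DESeq2 called 1 of the 5, Sox10 (adjusted p = 0.0199), against 6.68% of all genes to which it gave an adjusted p. The abundant Pmp22 had a log2 fold change of -0.05 and Prx -1.46 (SE 1.28). Over 11 libraries Meg3 and Rian had r = -0.691 and r = -0.683 with that sum, r = -0.325 and -0.574 without the 2 farthest libraries, and r = -0.413 and -0.859 within naïve control. Of 12 RPE markers 3 differed at an unadjusted p under 0.05, Stra6 (0.53) and Slc16a8 (0.50) higher and Mitf (-0.49) lower, against 15.9% of all genes. DESeq2 called 2 of the 12, Stra6 and Slc16a8 (adjusted p = 0.0397 for both), against 6.68% of all genes to which it gave an adjusted p. Removing the GC trend left 0 of the 12 at an unadjusted p under 0.05, against 1071 of 14602 genes. Stra6 then had 0.34, Slc16a8 0.28 and Mitf -0.22. In the main fit 0 of 12, 0 of 6, 0 of 6 and 0 of 6 neural retina, endothelium, fibroblast and melanocyte markers differed at that threshold. Malat1 had r of -0.291 to 0.378 with the summed level of each of these lists and of the RPE, neuron and Schwann cell lists. The part of these cells in the levels of the members was not tested.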

How the data were processed

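Bulk RNA of RPE/choroid was sequenced from 6 naïve control and 5 laser treated libraries, grouped by their labels. The authors deposited raw counts per gene for 14602 genes, not normalized and not pooled; the submitters' processing notes name Trim Galore, STAR 2.5.3a, featureCounts 1.5.3, StringTie 1.3.3 and edgeR 3.22.3, on GRCm38. The counting strand and the annotation release are not given in the sources used here. The deposited transcript files hold, for each library, single-exon transcripts assembled by StringTie with their coverage and TPM. The log2 fold change, log2 average CPM, score (F statistic) and p-value columns that the authors deposited hold their own comparison and were not used.

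Counts were TMM-normalized and tested across all genes with the robust quasi-likelihood test of edgeR 4.0.16 (R 4.3.3), with Benjamini-Hochberg adjustment and a threshold of 0.05; filterByExpr removed no gene. CPM are TMM-normalized, and correlations use log2 CPM. Alternatives were DESeq2 1.42.0, limma voom 3.58.1, other filters and scalings, left-out libraries, a replicate block, labels R1 and R2, and removal of a loess trend (span 0.3) on GC content. Single values were compared with exact permutation tests in scipy 1.17.1. The edgeR and DESeq2 scripts were tested on simulated data. Total counts of 25700881 to 38755994 per library set the precision, and intervals of 0 counts cover counting error only.

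Gene models and sequences came from GENCODE M21 (GRCm38), and 97.6% of the genes had a GC content. The members and the gene lists were chosen with earlier results of these data known. Named genes were all members, all measured genes of the neighbour, imprinted domain and other noncoding lists, the 2 of lowest p and the 2 of highest mean CPM of each other list, and the 5 most and least like Malat1. Son, Tra2a, Srrm1, Mitf, Prx, Best1, Rlbp1, Lrat and Rpe65 were named outside this rule, after their values were seen. Some genes that the rule names are not reported here. The 13 mitochondrially encoded genes were looked for, and 0 are in the count table.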

Additional observations from a re-analysis of the deposited data

How the results depend on the processing

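Malat1 and Kcnq1ot1 kept the sign of their log2 fold change in 29 of 29 alternatives each (adjusted p of 0.325 to 0.885 and 0.328 to 0.990), Meg3 in 26 of 27, Rian in 25 of 26 and Neat1 in 23 of 29, and no member passed the threshold in any of them. The alternatives reuse the same libraries, and the unfiltered fit equals the main fit. For Kcnq1ot1 the kept signs include -0.04 (SE 0.32) with the GC trend removed and -0.06 (SE 0.27) with a replicate block as well. Neat1 had -0.0788 without naïve control 6 and laser treated 5, -0.0772 with the Y-linked level as a term (added after seeing the data) and -0.0076 and -0.0075 from the TPM of the transcript files with pseudocounts of 1 and 0.1. Meg3 had 0.25 within label R2, and Rian 0.13 with the GC trend removed and a replicate block. The cause was not tested. Leaving out 1 library at a time gave -0.86 to -0.38 for Malat1, -0.27 to 0.28 for Neat1, -1.01 to -0.37 for Meg3, -1.28 to -0.49 for Rian and -0.58 to -0.17 for Kcnq1ot1.

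Genes called at an adjusted p under 0.05 numbered 0 with edgeR, 502 with DESeq2, 1 with limma voom, 2 with at least 10 counts in every library, 389 without naïve control 6 and laser treated 5 and 0 to 4 with 1 library left out (4 without laser treated 2). Those at an unadjusted p under 0.05, 2325 with edgeR, were 919 within label R2, 1071 with the GC trend removed and 1479 with a replicate block as well, and 1685 to 2771 with 1 library left out. The median of the Malat1 3′ end list went from -0.265 to 0.0165 with the GC trend removed. Of the 10 genes most or least like Malat1, 2 were kept with Spearman's correlation and 2 without naïve control 6 and laser treated 5. The TPM of the transcript files gave medians of 1440 for Malat1, 23.6 for Neat1 and 0.158 for Kcnq1ot1.

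The replicate block gave -0.84 for Malat1, 0.28 for Neat1, -0.96 for Meg3, -0.43 for Rian and -0.46 for Kcnq1ot1, with 0 genes at an adjusted p under 0.05 and 2546 at an unadjusted p under 0.05. Same-numbered libraries correlated at -0.009 to 0.28 in their deviations from the group means, and 2 of 5 correlated best with their own number. So few values cannot tell whether an equal number marks anything shared, and the labels do not say. The low counts of Rian, 0 in 2 libraries, limit what can be seen of it.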
